A study of Homo sapiens with 208 samples.

Results

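Metallothioneins are small cysteine-rich proteins that bind zinc and copper, buffer these metals in the cytosol and also take up toxic metals such as cadmium. Their genes lie side by side on human chromosome 16. The zinc-sensing transcription factor MTF1 raises their transcription through short metal response elements in the promoters when free zinc rises, and glucocorticoids and oxidative stress raise it as well. The family is divided into MT2A, the MT1 genes and the more tissue-restricted MT3 and MT4. The genes described here were MT1A, MT1E, MT1F, MT1G, MT1H, MT1M, MT1X and MT2A. They were chosen by list, as the genes whose RefSeq accessions the array's probes carry, and make 8 of the 16961 genes with a probe. Of these 8, 7 passed the filter on low signal, among 13261 genes tested in all. To pass, a gene needed a signal well over its background on 13 or more of the 26 arrays in any one course.

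The arrays followed 2 human lung adenocarcinoma cell lines. PC9 is sensitive to gefitinib, an inhibitor of the tyrosine kinase of the epidermal growth factor (EGF) receptor. PC9M2, labelled PC9GRM2, is 1 gefitinib-resistant clone of PC9, selected by repeated exposure to the drug from clones without MET amplification or the common gatekeeper mutation of the receptor, so that it stands for that clone and not for resistance in general. After 48 h of starvation, which all samples shared, each line was left without treatment, given 100 ng/ml EGF, given 0.5 μM gefitinib, or given EGF and gefitinib together. Total RNA was hybridised to one-colour oligonucleotide arrays at 26 time points, at 0 and 0.5 h and at every hour from 1 to 24 h, with 1 array for each line, treatment and time. The unit of replication in every test below is therefore the time point, and no label says whether the time points came from separate cultures, so that p-values measure the spread between time points. Each array measured the pooled RNA of a cell culture, in which fewer cells expressing a gene and less of its RNA per cell cannot be told apart.

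The arrays differed in ways that the groups share and in ways that set the lines apart. Between 24755 and 36332 of the 45015 features of an array were well above background. The PC9 arrays held from 221 to 1702 saturated features each and the PC9M2 arrays 0. Probes of the members were saturated on 0 arrays. The 4 treatments of a line at a time point shared a slide, and each treatment always had the same position on the slide, so that treatment and position cannot be told apart. PC9 and PC9M2 had 0 slides and 0 scan days in common, and line and scan period cannot be told apart either, and within a course neighbouring time points were mostly scanned together, with the 1 h arrays of PC9M2 on a day of their own. Of 9 markers of immune, endothelial and stromal cells 8 had a probe. PTPRC was well above background on 1 array, PDGFRB on 1, COL3A1 on 6 and DCN on 31, whereas CD3E was on 84, PECAM1 on 207, and CD68 and VWF on all. The last 4 were tested, and CD68, PECAM1 and VWF were lower in PC9M2 under every treatment, by -0.83, -1.51 and -1.02 without treatment, where 34.8% to 37.8% of all genes were lower. With gefitinib 2, 2, 3 and 3 of the 4 were higher in PC9, PC9 with EGF, PC9M2 and PC9M2 with EGF, and 1 was lower in PC9. Among all genes 34.8%, 38.9%, 32.5% and 36.5% were higher in the same order, and 37.4% were lower in PC9. The part of these markers in the results below was not tested. Of 10 lung epithelial markers 9 were tested, with EPCAM, KRT7, KRT8, KRT18 and KRT19 well above background on all arrays, whereas NKX2-1 was on 13 and SFTPB on 89.

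The promoters of 3 of the 8 members were in the sequence table used here (RefSeq, build GRCh38.p14), those of MT2A, MT1H and MT1X, and not those of MT1A, MT1E, MT1F, MT1G and MT1M. They are shown because they were the only windows available, and were not chosen by the results below. Each run holds the 250 bases before the annotated start on the plus strand of chromosome 16, which is upstream of the transcribed gene, and the capitals mark the 7-base core of the metal response element, searched on both strands as TGCACNC or TGCGCNC.
MT2A, chr16:56608334-56608583: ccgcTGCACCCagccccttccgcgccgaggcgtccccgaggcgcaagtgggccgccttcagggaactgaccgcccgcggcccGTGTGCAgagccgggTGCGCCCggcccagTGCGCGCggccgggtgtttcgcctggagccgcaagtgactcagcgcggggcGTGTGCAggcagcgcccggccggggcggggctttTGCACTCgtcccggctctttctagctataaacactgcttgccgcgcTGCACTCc
MT1H, chr16:56669564-56669813: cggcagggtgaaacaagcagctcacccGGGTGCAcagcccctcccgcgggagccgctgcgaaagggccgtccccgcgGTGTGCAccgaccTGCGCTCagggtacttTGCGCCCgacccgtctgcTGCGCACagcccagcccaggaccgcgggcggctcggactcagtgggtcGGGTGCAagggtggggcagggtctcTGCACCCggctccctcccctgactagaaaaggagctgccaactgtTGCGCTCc
MT1X, chr16:56682220-56682469: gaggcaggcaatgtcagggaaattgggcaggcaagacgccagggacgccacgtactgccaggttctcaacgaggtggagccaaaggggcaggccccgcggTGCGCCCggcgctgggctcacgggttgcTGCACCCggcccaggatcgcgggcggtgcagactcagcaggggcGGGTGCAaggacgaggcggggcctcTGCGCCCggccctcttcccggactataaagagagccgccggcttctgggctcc
The MT2A window held 7 separate stretches with the core, the MT1H window 8 and the MT1X window 4. At least 1 match lay in 24.8% of 35116 promoter windows of the same length. At least 4 stretches lay in 0.208% of the windows, at least 7 in 0.0228% and at least 8 in 0.0142%. A match is a run of letters and does not show that a factor binds there.

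All values are log2 intensities after quantile normalization, one probe per gene, so that 1 unit is a doubling, and levels are compared between arrays for the same probe only. MT2A, the most widely expressed metallothionein gene in human tissues, ran in untreated PC9 cells from 12.72 through a median of 13.83 to 14.56 over the 26 arrays. With gefitinib the same probe ran from 12.05 through 13.31 to 13.90, with EGF from 13.02 through 13.72 to 14.54, and with both from 12.50 through 13.38 to 13.90. The gefitinib courses sat lower and their ranges overlapped those without gefitinib. In PC9M2 the MT2A level ran from 12.01 through 13.41 to 14.01 without treatment, from 11.23 through 12.80 to 14.47 with gefitinib, from 12.05 through 13.63 to 14.21 with EGF and from 11.58 through 12.86 to 14.15 with both. These ranges overlapped as well, and those of the resistant line reached lower.

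MT1G, an inducible MT1 gene, ran from 10.68 through 11.83 to 12.78 in untreated PC9 cells, and from 10.11 through 11.39 to 11.87 with gefitinib. In PC9M2 it ran from 9.66 through 11.26 to 11.86 without treatment, and from 9.35 through 10.53 to 12.46 with gefitinib. MT1E, MT1H and MT1X, further MT1 genes with the same metal-binding role, moved closely with MT1G and MT2A. Over all arrays the correlations among MT1E, MT1G, MT1H, MT1X and MT2A were 0.90 to 0.98. These 5 genes are close paralogs on 1 array design, and whether their probes read one another's transcripts was not tested. These 5 are described together below, a grouping made after their values were seen.

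MT1F and MT1A stood apart from the other 5. MT1F correlated with them at 0.43 to 0.56, and MT1A at 0.06 to 0.29 over 207 arrays, 1 array value of MT1A in PC9 with EGF being flagged as an outlier and left out. MT1F ran from 8.24 through 8.90 to 9.82 in untreated PC9 and from 7.98 through 8.52 to 8.94 in untreated PC9M2, and MT1A from 11.93 through 12.61 to 13.42 in untreated PC9. In untreated PC9M2 MT1A ran from 8.05 through 12.53 to 14.16, where the lowest value is the 16 h array alone and the next time points lay near the median. MT1M was well above background on 1 array of the series, the untreated PC9M2 array at 5 h with 4.82, and was not tested. When the 8 courses were ordered by mean level, every pair of neighbours in that order differed by less than 1 pooled SD over time points, for each of the 7 members. Neighbours in such an order lie close by construction, and courses further apart in it differed more. The mean of MT2A was 13.88 in untreated PC9, the highest, and 12.82 in PC9M2 with gefitinib, the lowest.

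**Figure D1:**
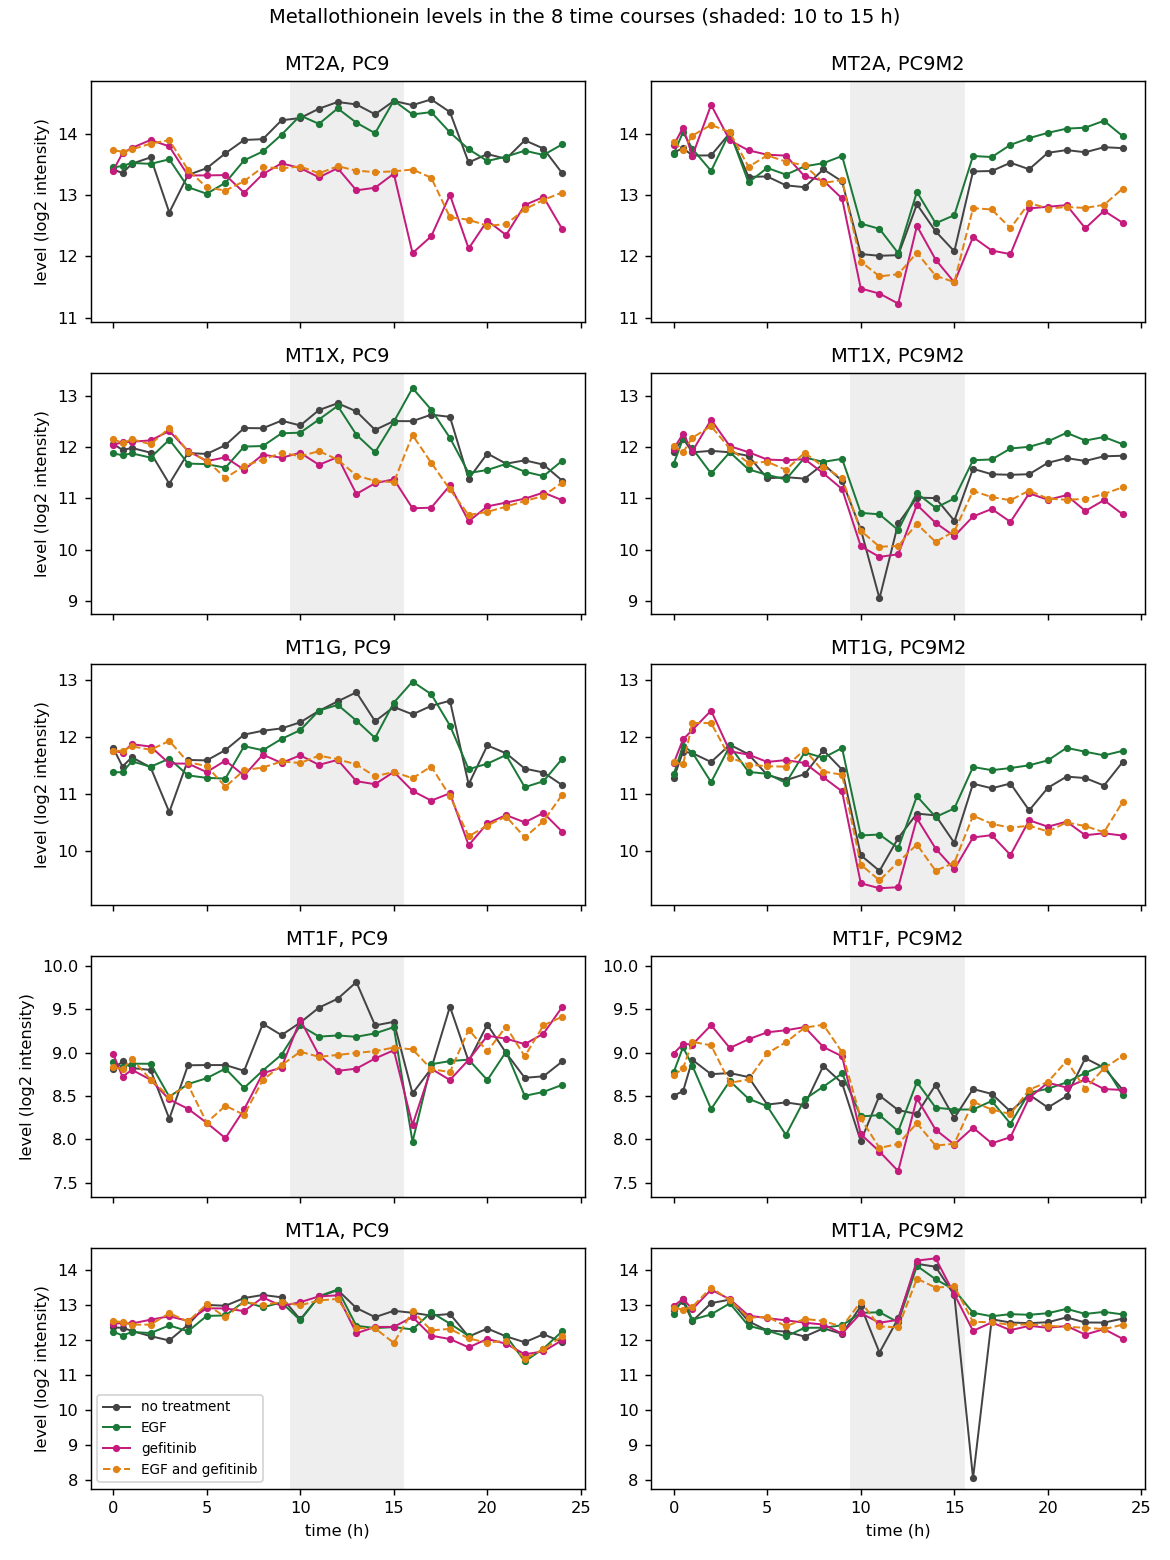
Log2 intensity of MT2A, MT1X, MT1G, MT1F and MT1A (rows) over time in h in PC9 (left) and PC9M2 (right), 1 point per array and 1 line per treatment, with 10 to 15 h shaded. MT2A, MT1X and MT1G lie lower with gefitinib at the later time points of both lines, and drop at 10 to 15 h in all 4 PC9M2 courses, while MT1A rises there.

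Gefitinib was set against no gefitinib at matched time points, which asks how the blocked receptor changes expression in each line. In PC9 without EGF, 6 of the 7 members were lower with the drug and 0 higher (paired limma fit over all genes, Benjamini-Hochberg adjusted p at 0.05). This reads against 37.4% of all tested genes lower and 34.8% higher, so that being called is common in this comparison and the shared direction is the description. The median difference of the members was -0.63 on the log2 scale and that of all genes -0.03. MT2A was lower by the mean difference of -0.77 ± 0.15 (SE, n = 26; adjusted p = 4.24e-05 from limma), a 1.70-fold difference, with 22 of 26 time points lower. MT1G differed by -0.67 ± 0.13 (adjusted p = 2.71e-05 from limma, 22 of 26 lower). MT1E, MT1X and MT1H differed by -0.66, -0.63 and -0.62, with 20, 21 and 21 of 26 time points lower. MT1F differed by -0.23 ± 0.09 (adjusted p = 0.0183 from limma). With the arrays scaled to the 75th percentile the MT1F difference was -0.16 with an adjusted p of 0.0882, and it was not called. MT1A differed by -0.13 ± 0.07 and was not called (adjusted p = 0.123 from limma).

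With EGF in both courses, 5 of the 7 members were lower with gefitinib in PC9, where 40% of all genes were lower and 38.9% higher. The difference was -0.53 ± 0.11 for MT2A (SE, n = 26; adjusted p = 5.67e-05 from limma), -0.53 for MT1G, -0.52 for MT1E, -0.43 for MT1X and -0.41 for MT1H, each lower at 19 of 26 time points. MT1F at 0.03 and MT1A at 0.05 did not pass the test. In the resistant PC9M2 the same 5 members were called lower, where 34% of all genes were lower and 32.5% higher. Here the difference was -0.42 ± 0.12 for MT2A (adjusted p = 0.0029 from limma, 19 of 26 lower), -0.37 for MT1E, -0.35 for MT1G, -0.26 for MT1X and -0.24 for MT1H. MT1F was at 0.09 and MT1A at 0.21, neither called, and without the 16 h array MT1A was at 0.05. In PC9M2 with EGF the 5 were called lower again, against 38% of all genes lower and 36.5% higher, with -0.54 ± 0.12 for MT2A (adjusted p = 0.000156 from limma), -0.51 for both MT1E and MT1G, -0.42 for MT1H and -0.40 for MT1X. The member medians in these 3 comparisons were -0.43, -0.26 and -0.42, beside -0.01, -0.01 and -0.02 for all genes.

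**Figure D2:**
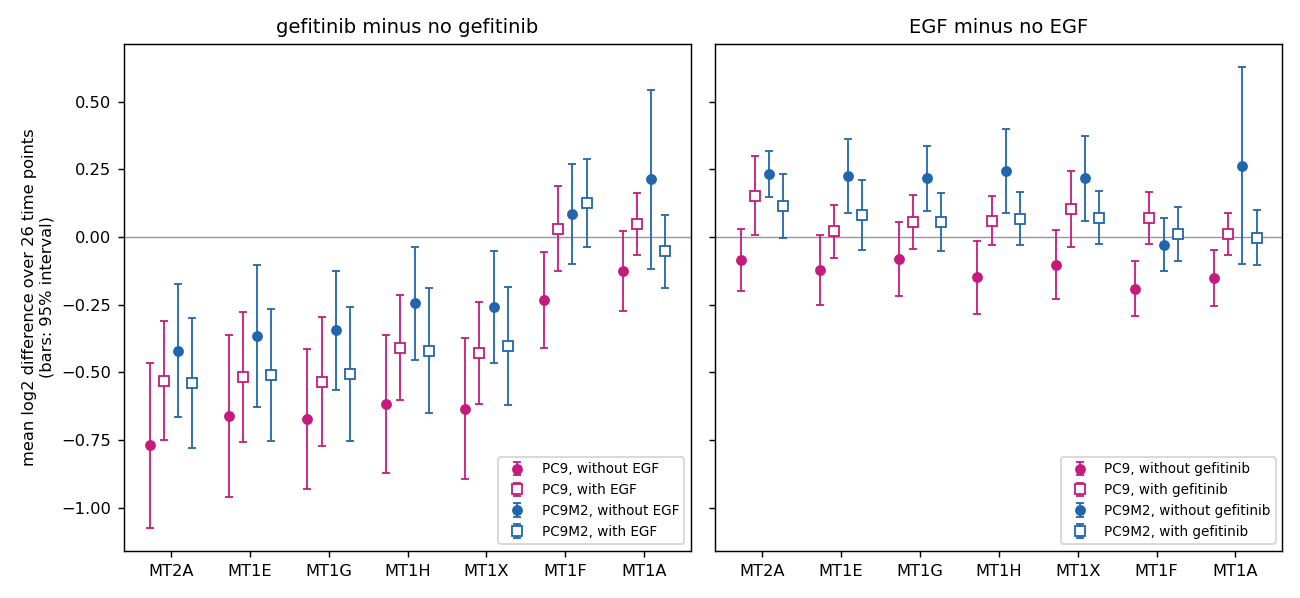
Mean log2 difference over 26 matched time points for the 7 tested members, gefitinib minus no gefitinib (left) and EGF minus no EGF (right), with 95% intervals of the limma fit and one marker per line and background treatment. The intervals of MT2A, MT1E, MT1G, MT1H and MT1X lie below 0 in all 4 gefitinib comparisons, from -0.77 to -0.24, and those of EGF in PC9M2 without gefitinib lie above 0 for the same 5, before adjustment over all genes.

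Neighbouring time points were not independent. The correlation of a difference with that of the next time point was 0.77 to 0.85 for the 5 genes in PC9 without EGF and 0.52 to 0.75 in PC9M2 without EGF. When the variance was inflated for it, 0 of 7 members were called in each of the 4 gefitinib comparisons, and with time points at least 3 h apart 2 were called in PC9, 5 in PC9 with EGF, 2 in PC9M2 and 3 in PC9M2 with EGF. The pairing by time point carried part of the PC9M2 calls: without the replicate block 6, 5, 0 and 5 members were called in the same order, and the adjusted p of MT2A in PC9M2 became 0.0818. Calls among all genes fell too in each of the 14 paired comparisons. They were at most 0.83 times the main count with the inflated variance, 0.82 times with 3 h spacing and 0.998 times without the block. The shares of all genes for each comparison under these settings are not given here.

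The difference varied over the courses, so that the mean over 26 points joins stretches of opposite sign. Over the 8 time points from 0 to 6 h the mean differences of the 5 genes were 0.15 to 0.25 in PC9, 0.17 to 0.24 in PC9 with EGF, 0.21 to 0.30 in PC9M2 and 0.18 to 0.26 in PC9M2 with EGF, all above 0. At 0 h the 5 were already higher with gefitinib in PC9 with EGF and in both PC9M2 comparisons. MT2A was then at 13.73 against 13.45 in PC9 with EGF, 13.82 against 13.69 in PC9M2 and 13.87 against 13.67 in PC9M2 with EGF. In PC9 without EGF only MT1E of the 5 was higher at 0 h, and MT2A was at 13.40 against 13.42. Whether these early differences follow from the drug was not tested. At 3 h the untreated PC9 array was low for all 5, which gives differences of 0.85 to 1.35 there. This 1 array raises the PC9 means of 0.15 to 0.25, so that their size rests largely on it. From 13 to 18 h in PC9 the differences were -1.63 to -1.37, a 2.59 to 3.10-fold lower level with gefitinib, and each of the 5 genes was lower at 6 of 6 time points. For MT2A, the untreated PC9 arrays in that stretch ran from 14.32 to 14.56 and those with gefitinib from 12.05 to 13.35, without overlap. With EGF the PC9 differences from 13 to 18 h were -1.14 to -0.79, again with 6 of 6 lower for each of the 5.

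In PC9M2 the differences grew later. From 7 to 12 h they were -0.39 to -0.01 without EGF, from 13 to 18 h -0.86 to -0.58, and from 19 to 24 h -1.08 to -0.76. The untreated PC9M2 array at 11 h was low for MT1E, MT1H and MT1X, at 7.80, 8.90 and 9.04. At 10 h these 3 genes were at 8.78, 10.22 and 10.39. That low array gives gefitinib differences of 0.73 for MT1H and 0.81 for MT1X at 11 h. For MT2A the untreated PC9M2 arrays from 19 to 24 h ran from 13.42 to 13.78 and those with gefitinib from 12.46 to 12.84, without overlap. With EGF the PC9M2 differences from 19 to 24 h were -1.20 to -1.06, or 2.09 to 2.30-fold. Each of the 5 genes was lower at 6 of 6 time points in both comparisons. Over the last 13 time points the test called 6 members lower in PC9, 5 in PC9 with EGF, 6 in PC9M2 and 6 in PC9M2 with EGF. Over the first 13 it called 1 lower in PC9, 1 lower and 1 higher in PC9 with EGF, 2 higher in PC9M2 and 1 higher in PC9M2 with EGF. Calls among all 13261 tested genes varied widely with the comparison. Over the 14 paired comparisons, including those of EGF and of the lines, they ranged from 2 to 10421 genes with the last 13 time points. With the first 13 they ranged from 0 to 8960. These counts are not split by direction or given for each gefitinib comparison, so that they are no measure for the member counts.

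A spline fitted to the gefitinib differences tested this change over time directly. In PC9 it was called for 7 of 7 members, against 52.2% of all genes, with a fitted range from 0.76 for MT1A to 2.00 for MT2A (adjusted p = 3.51e-07 for MT2A from limma) and a median of 1.63 beside 1.07 for all genes. In PC9M2 it was called for 6 of 7, against 45.3%, with a range of 1.49 for MT2A (adjusted p = 7.75e-07 from limma) and a median of 1.43 beside 0.86. MT1A was the one not called there (adjusted p = 0.535 from limma). With outlying points replaced by a smoothing spline its adjusted p was 0.0142. The residuals of these fits had correlations between neighbouring time points of -0.42 to 0.09. Averaged by scan day, the difference of MT2A was below 0 on 6 of the 8 days of PC9, between -2.00 and 0.21, and on 7 of the 9 days of PC9M2, between -1.29 and 0.42. A day holds neighbouring time points, apart from the 1 h point of PC9M2, scanned apart from those before and after it, so that day and time cannot be told apart.

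MT1F followed another course. In PC9 its gefitinib difference averaged -0.46 from 7 to 12 h and -0.49 from 13 to 18 h, and was 0.26 from 19 to 24 h, with 5 of 6 time points higher. With EGF it was 0.50 from 19 to 24 h, higher at 6 of 6, where the 5 other genes were lower at 6 of 6. In PC9M2 MT1F averaged 0.52 higher with gefitinib from 0 to 6 h, at 8 of 8 time points. Its levels there ran from 8.99 to 9.32 with gefitinib, against 8.40 to 8.92 without treatment. The 8.99 is the value at 0 h, so that MT1F was already higher in the gefitinib course at that time. The MT1F averages were 0.03, -0.33 and -0.02 in the later stretches. MT1A was higher with gefitinib at 8 of 8 time points from 0 to 6 h in PC9M2, by 0.22 on average, and lower at 6 of 6 from 19 to 24 h, by the average of -0.26. It too was already higher at 0 h. Whether the early differences of MT1F and MT1A follow from the drug was not tested.

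**Figure D3:**
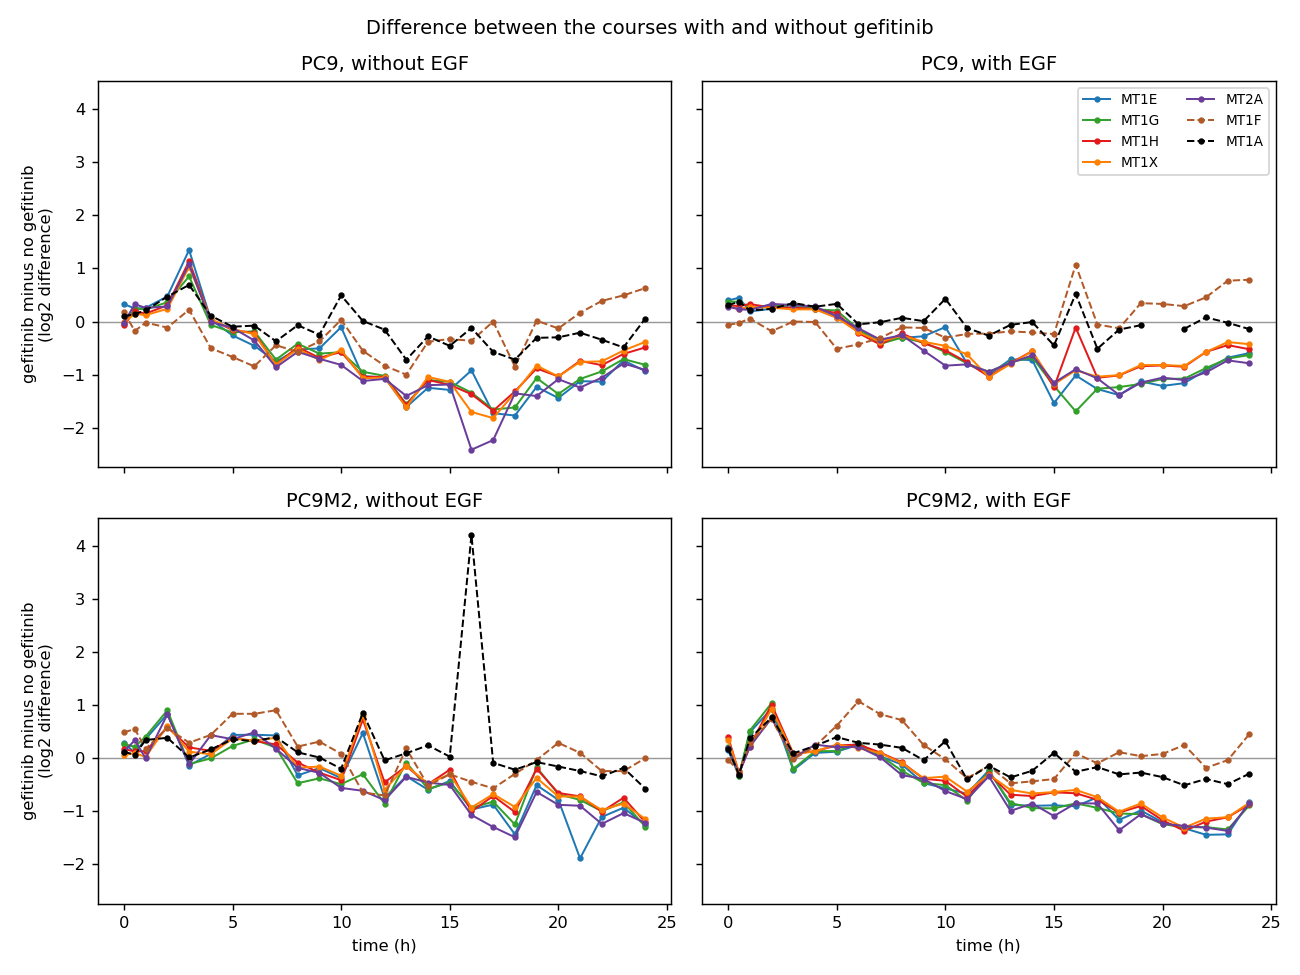
Log2 difference between the courses with and without gefitinib over time in h, for PC9 (top) and PC9M2 (bottom), without EGF (left) and with EGF (right), 1 line per member and 1 point per pair of arrays. MT1E, MT1G, MT1H, MT1X and MT2A (solid) run together, above 0 on average from 0 to 6 h and below 0 from 13 h on, while MT1F and MT1A (dashed) depart from them, with the 16 h value of 4.20 for MT1A in PC9M2.

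Each course alone was also tested for change over time. In untreated PC9 the 5 genes rose to a fitted high at 12 to 13 h and fell again, MT2A from a mean of 13.39 at 0 to 6 h to 14.45 at 13 to 18 h and 13.64 at 19 to 24 h. With gefitinib the MT2A means were 13.57, 12.82 and 12.55 in the same stretches, without that high. In PC9 7 of 7 members changed in each course, against 66.5% of genes without treatment, 77.8% with gefitinib, 78.8% with EGF and 83.1% with both. In PC9M2 5 of 7 changed without treatment (67.5% of genes; MT1A and MT1F did not pass), 7 with gefitinib (63.7%), 7 with EGF (74.9%) and 6 with both (67.6%; MT1A did not pass). The median fitted range of the members was 1.49, 2.04, 1.31 and 1.91 in these PC9M2 courses, beside 0.97, 0.81, 0.92 and 0.82 for all genes. In PC9 it was 1.32 without treatment, 1.30 with gefitinib, 1.08 with EGF and 1.24 with both, beside 0.99, 1.11, 1.06 and 1.16. The PC9M2 ranges contain the stretch described next.

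From 10 to 15 h, 6 time points scanned on 2 days, the 24 PC9M2 arrays stood apart for these genes under every treatment. MT1E, MT1G, MT1H, MT1X and MT2A lay lower there than at the 6 time points around it, from 7 to 9 h and from 16 to 18 h, by mean differences of -1.23 to -0.75 over the 4 courses, while in PC9 the same differences were -0.13 to 0.41. MT1F differed by -0.76 to -0.13 in PC9M2 and by 0.26 to 0.55 in PC9. MT1A went the other way in PC9M2 at 0.60 to 1.50, where the highest value contains the low 16 h array, and stayed within -0.12 to 0.12 in PC9. Among all tested genes, 1119 of 13261, or 8.44%, were lower by at least 0.5 in all 4 PC9M2 courses in this stretch, and 5 of the 7 members were. Another 796 genes, or 6%, were higher by at least 0.5 in all 4, as was MT1A. The stretch was chosen after these values were seen, so that the member counts are a description only. Time and scan day cannot be told apart within this stretch, and every comparison of the lines below contains it.

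**Figure D4:**
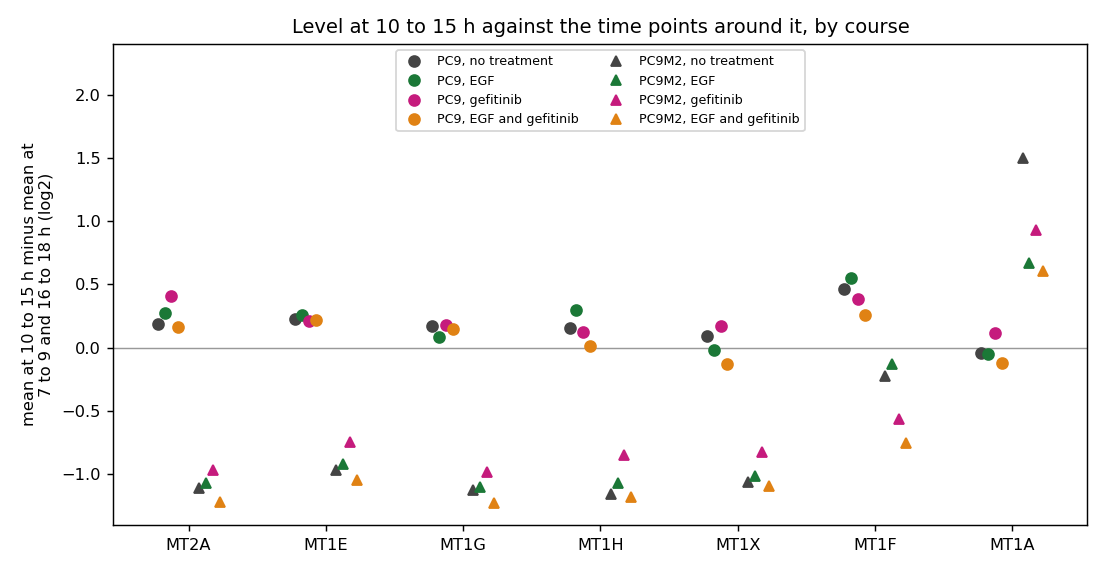
Mean log2 level at 10 to 15 h minus the mean at 7 to 9 h and 16 to 18 h for each member, circles for the 4 PC9 courses and triangles for the 4 PC9M2 courses. The PC9M2 values of MT2A, MT1E, MT1G, MT1H and MT1X lie between -1.23 and -0.75 and those of MT1A between 0.60 and 1.50, while the PC9 values of all 7 lie between -0.13 and 0.55.

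EGF was compared with no EGF at matched time points. In PC9 MT1F was lower with EGF by the mean difference of -0.19 ± 0.05 (SE, n = 26; adjusted p = 0.00495 from limma, 19 of 26 lower) and MT1A by -0.15 ± 0.05 (n = 25; adjusted p = 0.0284 from limma, 17 of 25 lower), so that 2 of 7 members were lower against 14.3% of all genes lower and 11.3% higher. The 5 other genes were at -0.15 to -0.08 and did not pass, though they were lower with EGF at 17 to 21 of 26 time points. The low untreated PC9 array at 3 h gives EGF differences of 0.86 to 0.97 for these 5, which enter their means. In PC9 with gefitinib 0 of 7 were called, with 1 at an unadjusted p under 0.05 and 0 by the methods' t-test after the same adjustment, and limma called 0.0452% of all genes higher, 6 in number, and 0% lower. In PC9M2 4 of 7 members were higher with EGF, against 4.16% of all genes higher and 4.92% lower. MT2A was higher by 0.23 ± 0.04 (adjusted p = 0.000397 from limma, 23 of 26 higher), MT1E by 0.23, MT1H by 0.24 and MT1G by 0.22. MT1X at 0.22 did not pass (adjusted p = 0.0743 from limma).

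The EGF difference in PC9M2 varied over the course. From 0 to 6 h the 5 genes differed by -0.11 to 0.04, from 7 to 12 h by 0.24 to 0.46, from 13 to 18 h by 0.19 to 0.29 and from 19 to 24 h by 0.37 to 0.49, in the last stretch with all 5 higher at 6 of 6 time points, as was MT1A at 0.23. The low untreated array at 11 h gives EGF differences of 1.28 for MT1E, 1.61 for MT1H and 1.64 for MT1X, which enter the values from 7 to 12 h. For MT2A the arrays with EGF ran from 13.93 to 14.21 from 19 to 24 h, above the 13.42 to 13.78 without treatment. Without the time points from 10 to 15 h 2 members were called, and without the replicate block, which treats the courses as unpaired, 0. In PC9M2 with gefitinib limma called 0 of 7 members, 0 also at an unadjusted p under 0.05 and by the methods' t-test, against 0.973% of all genes higher and 2.13% lower. There the 5 genes were at 0.06 to 0.11, and the 95% interval of MT2A reached up to 0.23.

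PC9M2 was set against PC9 hour by hour under the same treatment, which asks how the resistant clone differs from its parent. Without treatment 5 of 7 members were lower in PC9M2 and 0 higher, against 37.8% of all genes lower and 30.3% higher. MT1H differed by -0.80 ± 0.19 (SE, n = 26; adjusted p = 0.000573 from limma, 21 of 26 lower), MT1G by -0.80, MT1X by -0.73, MT2A by -0.64 and MT1F by -0.49 (21 of 26 lower). The further MT2A probes gave -0.28, with 14 of 25 time points lower, and -0.16, with 14 of 26, for the same comparison, and the second MT1G probe gave -0.29, with 13 of 26. MT1E at -0.36 and MT1A at -0.08 were not called. The median of the members was -0.64 and of all genes -0.06. Neighbouring time points correlated here as well, at 0.75 to 0.78 for the 5 genes, and with the variance inflated for it 1 member was called without treatment, 0 with gefitinib, 1 with EGF and 0 with both. Among all genes the calls fell as well, to at most 0.83 times the main count in any paired comparison.

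With gefitinib 3 members were lower in PC9M2, against 34.8% of all genes lower and 29.9% higher: MT1G by the mean difference of -0.47, MT1H by -0.43 and MT1X by -0.35. The second probes gave 0.11 for MT1G, higher at 18 of 26 time points, 0.01 for MT1H, higher at 15 of 26, and -0.27 for MT1X. With EGF 4 were lower, MT1G, MT1X, MT1H and MT1F at -0.50 to -0.33, and MT1A was higher by 0.32 (adjusted p = 0.0434 from limma), against 37.7% lower and 32.1% higher. With both 4 were lower, MT1G, MT1H, MT1X and MT2A at -0.47 to -0.33, against 37.1% lower and 30.6% higher. MT2A was then higher in PC9M2 at 14 of 26 time points, with a median difference of 0.03, and its further probes gave -0.10 and -0.02, with 15 and 17 of 26 higher. The lower levels lay in the middle of the courses. Without treatment the 5 genes were at -0.07 to 0.52 from 0 to 6 h, at -1.85 to -1.50 from 7 to 12 h, at -1.71 to -1.05 from 13 to 18 h and at -0.27 to 0.29 from 19 to 24 h. The low untreated PC9M2 array at 11 h gave -3.22 for MT1E and -3.68 for both MT1H and MT1X. With EGF the 5 genes were at -1.23 to -0.93 from 7 to 12 h, but at 0.24 to 0.74 from 19 to 24 h, with all 5 higher in PC9M2 at 6 of 6 time points. From 19 to 24 h they were at -0.06 to 0.31 with gefitinib and at -0.02 to 0.49 with both. Without the time points from 10 to 15 h, 4 members were called lower without treatment, 0 with gefitinib, and 1 higher both with EGF and with both, MT1E at 0.39 and 0.36. The untreated differences then were -0.35 for MT1G and MT1H, -0.30 for MT1X, -0.29 for MT1F and -0.18 for MT2A, the last not called.

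The gefitinib difference itself was compared between the lines. Without EGF its mean was less negative in PC9M2 for 4 members, by 0.38 ± 0.12 for MT1X (SE, n = 26; adjusted p = 0.0164 from limma), 0.37 for MT1H, 0.35 for MT2A and 0.33 for MT1G, each with the PC9M2 difference above that of PC9 at 20 of 26 time points, against 17.5% of all genes higher and 16.6% lower. From 0 to 6 h, where the gefitinib differences of both lines were above 0 on average, the 5 genes were at 0.05 to 0.13, and from 13 to 18 h at 0.65 to 0.87. From 7 to 12 h they were at 0.33 to 0.77, and from 19 to 24 h at -0.08 to 0.20. At 11 h, with the low untreated PC9M2 array, MT1E was at 1.50, MT1H at 1.77 and MT1X at 1.88. MT1E at 0.29, MT1F at 0.32 and MT1A at 0.34 did not pass. Without the time points from 10 to 15 h 0 of 7 members were called, and without the replicate block 0. With EGF limma called 0 of 7, as did an unadjusted p under 0.05 and the methods' t-test, against 22.8% higher and 25.8% lower, and the 5 genes were at -0.01 to 0.03, with a 95% interval of -0.13 to 0.11 for MT2A. These means join stretches of opposite sign. With EGF the 5 genes were at 0.13 to 0.27 from 7 to 12 h. From 19 to 24 h they were at -0.43 to -0.22, more negative in PC9M2. The comparisons of gefitinib within each line and of the lines share their arrays.

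Members with more than 1 probe gave the same direction by every probe in the 4 gefitinib comparisons, but not between the lines. There the second MT1G probe gave 0.11, 0.04 and 0.10 with gefitinib, with EGF and with both, the second MT1H probe 0.01 with gefitinib, and 1 further MT2A probe 0.03 with gefitinib and 0.02 with EGF, each against a negative value by the probe used. Over all arrays the probes of MT1X correlated at 0.98, of MT1H at 0.90, of MT2A at 0.91 to 0.97 and of MT1G at 0.70. In PC9 the gefitinib difference was -0.62 and -0.69 by the further MT2A probes, -0.64 by the second MT1H probe, -0.59 by the second MT1X probe and -0.47 by the second MT1G probe. In PC9M2 the second MT1G probe gave -0.07, lower at 15 of 26 time points, against -0.35 by the probe used. With the mean of all probes of a gene 3 members were called lower with gefitinib in PC9M2, MT1G at -0.21 and MT1H at -0.21 not passing.

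Of 11 other metallothionein genes and pseudogenes 4 had a probe and 2 were tested, MT1B and the pseudogene MT1L. Both were lower with gefitinib in all 4 comparisons. MT1B differed by -0.65 in PC9, -0.49 in PC9 with EGF, -0.34 in PC9M2 and -0.51 in PC9M2 with EGF. MT1L differed by -0.66, -0.54, -0.26 and -0.45 in the same order. MT3, the brain form, had the probe of larger variance well above background on 24 arrays and was not tested. Its other probe was well above background on all arrays and gave gefitinib differences of 0.21, 0.10, 0.17 and 0.24 in the same order, above 0 at 20, 18, 21 and 19 time points. MT4 was well above background on 1 array. The genes whose levels ran most like the mean of the members over all arrays were MT1B (r = 0.97) and MT1L (r = 0.97), followed at a distance by ROMO1, a mitochondrial membrane protein, at 0.78, S100A5 at 0.75 and GNG5 at 0.75. The lowest were KDM1A, a histone demethylase, at -0.79 and EIF4A2 at -0.76. All arrays enter these values, which share slides, scan days and the stretch from 10 to 15 h in PC9M2.

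The zinc list held the sensor MTF1 and members of the zinc transporter families SLC30 and SLC39. With gefitinib 5 of its 19 tested genes were higher and 8 lower in PC9, 5 and 8 in PC9 with EGF, 5 and 9 in PC9M2, and 4 and 11 in PC9M2 with EGF, out of 25 listed. Among all genes 34.8%, 38.9%, 32.5% and 36.5% were higher and 37.4%, 40%, 34% and 38% lower in the same order. The medians of the zinc list were -0.15, -0.22, -0.13 and -0.38. MTF1 was lower with gefitinib in all 4, by the mean differences of -0.95, -0.76, -0.34 and -0.49, with a probe well above background on 175 arrays. SLC30A1, the zinc exporter that MTF1 induces together with the metallothioneins, was at -0.10, 0.10, 0.14 and -0.05 and was not called. Over all arrays the mean of the members correlated with MTF1 at -0.17 and with SLC30A1 at 0.07.

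The 4 zinc genes with the largest mean differences were transporters. SLC39A2, a zinc importer of the plasma membrane, was higher with gefitinib by 2.48 ± 0.18 in PC9 (SE, n = 26; adjusted p = 1.73e-12 from limma), by 2.74 in PC9 with EGF, by 2.84 in PC9M2 and by 2.99 in PC9M2 with EGF. The importers SLC39A8, SLC39A10 and SLC39A14 were lower in all 4 comparisons. SLC39A8 differed by -1.25, -1.34, -1.37 and -1.73, SLC39A10 by -1.54, -1.69, -1.36 and -1.72, and SLC39A14 by -1.59, -1.42, -1.06 and -1.49. The SLC39A14 probe was well above background on 81 arrays. These 4 differed in the same direction in both lines at nearly every time point, 26 of 26 for SLC39A2 in PC9.

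The genes next to the cluster on chromosome 16 did not share its direction as a block. Before the cluster, OGFOD1 was lower with gefitinib by -0.86 in PC9, at 26 of 26 time points, -0.86 in PC9 with EGF, -0.78 in PC9M2 and -0.78 in PC9M2 with EGF. BBS2, a cilium protein gene, was higher in PC9 by 0.71 at 26 of 26. NUDT21 was at 0.03 in PC9 and 0.07 in PC9 with EGF, neither called, and was lower in PC9M2 at -0.29, at 22 of 26, and in PC9M2 with EGF at -0.27. Behind the cluster, SLC12A3, HERPUD1, an endoplasmic reticulum stress gene, and NLRC5 were higher in PC9 by 1.11, 1.13 and 1.42, and NUP93 was at -0.14 and not called, nor was it in PC9 with EGF or in PC9M2, while in PC9M2 with EGF it was lower at -0.17 (adjusted p = 0.0312 from limma). These are from the tested genes nearest on either side by the gene order of GRCh38.p14.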

How the data were processed

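The authors labelled total RNA with Cy3, hybridised it to Agilent 44K arrays and scanned them. The deposited scanner files hold spot intensity values (processed signal, Feature Extraction 10.5.1.1, hg18 per the file headers), and the authors' deposited table holds quantile normalized intensity values. Taken to log2, these differed from the quantile normalized signals used here by at most 0.00201. Here the processed signals of all arrays were quantile normalized together, raised to at least 1 and taken to log2. Spots flagged as outliers (0.0793% of tested values) were left out, spots of a probe were averaged, and the probe of largest variance stood for its gene. Probes were named through their accessions (24794 of 41000 matched). A gene was tested where its probe was well above background on 13 of 26 arrays in at least 1 course (13261 of 16961 genes). The number of arrays limits the precision.

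Differences at matched time points were tested with limma 3.58.1 (R 4.3.3, two-sided, Benjamini-Hochberg at 0.05 over all genes), and change over time with a natural cubic spline of 4 degrees of freedom. The paired design followed the methods of the study. Treatments of a line at a time point shared a slide, and same-time deviations correlated at a median of 0.29 for gefitinib in PC9, 0.68 to 0.76 for EGF and 0.00 to 0.24 between the lines. The alternatives were other scaling, background correction with normexp on the median signals (mean signals were not used), the deposited table, probes, filters, floor, smoothing of outlying points, saturated spots left out, the methods' t-test, unpaired courses, thinned or halved time points, a variance inflated for autocorrelation, a minimum difference, a one-sided test, scan day as a random block (statmod 1.5.0) and a spline of 3 degrees of freedom. Leaving out 0 to 6 h, 10 to 15 h or 16 h was chosen after seeing the data. The scripts were tested on simulated data. The members and lists were chosen with earlier results of these data known. The text names all members, and of each other list at most 4 genes of the largest mean difference plus MTF1 and SLC30A1, which were added after seeing the data, the 5 genes of highest and of lowest correlation with the members, and the 4 nearest tested genes on either side of the cluster, of which 1 is not reported here.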

Additional observations from a re-analysis of the deposited data

Results flagged for a closer look

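The difference between the courses with and without gefitinib, without EGF, differed between the lines for 4 members by the test of that difference (paired limma, PC9M2 minus PC9, 26 time points). It was 0.33 for MT1G, 0.37 for MT1H, 0.38 for MT1X and 0.35 for MT2A, with 20 of 26 time points in that direction for each and adjusted p-values of 0.00972, 0.0121, 0.0164 and 0.012. Without the time points from 10 to 15 h none of these 4 passed, with 0.28 for MT2A (adjusted p = 0.131). The arrays of that stretch in PC9M2 lay apart for these genes under every treatment, and their part in the difference was not tested beyond leaving them out.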

How the results depend on the processing

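Direction and call of all members stayed with the deposited table of normalized values, with saturated spots left out and, apart from 1 call each, with the filter of 26 of 26 arrays, the probe of highest mean and the spline of 3 degrees of freedom. Scaling to the 75th percentile left 1 member lower with EGF in PC9. The mean of all probes left 3 members called for gefitinib in PC9M2, 2 for EGF in PC9M2, and 1, 2 and 2 for the lines with gefitinib, with EGF and with both. Among all genes the counts moved by over 1.5 times with unpaired courses in 6 of 14 comparisons, with time points 3 h apart in 9, with the inflated variance in 5, with the first 13 time points in 6 and with the scan day as a random block in 5 of 10. The cause was not tested.

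Without the replicate block, with the courses unpaired, the members called were 0 for gefitinib in PC9M2, 0 for EGF in PC9, 0 for EGF in PC9M2 and 0 for the difference of the gefitinib effect without EGF, and the other counts stayed within 1.5 times. With time points 3 h apart, which tests fewer points, they were 2, 2 and 3 for gefitinib in PC9, in PC9M2 and in PC9M2 with EGF, 0 and 0 for EGF in PC9 and PC9M2, 1, 1 and 0 for the lines without treatment, with EGF and with both, and 0 for the difference of the gefitinib effect. With the variance inflated for autocorrelation they were 0, 0, 0 and 0 for the 4 gefitinib comparisons, 1 and 1 for EGF in PC9 and PC9M2, 1, 0, 1 and 0 for the lines without treatment, with gefitinib, with EGF and with both, and 1 for the difference of the gefitinib effect. A mean difference of at least 1 left 0 members in all 4 gefitinib comparisons, 0 and 0 for EGF in PC9 and PC9M2, 0 in all 4 line comparisons and 0 for the difference of the gefitinib effect. The one-sided test for higher levels in PC9M2 called 0, 0, 1 and 0 members in the line comparisons.

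With the first 13 time points 1, 2, 2 and 1 members were called for gefitinib in PC9, PC9 with EGF, PC9M2 and PC9M2 with EGF, 0 and 0 for EGF in PC9 and PC9M2, 3, 0, 3 and 0 for the lines, and 1 and 1 for the difference of the gefitinib effect without and with EGF. Reversed there were MT1F in PC9 with EGF at -0.17, in PC9M2 MT1E at 0.18, MT1G at 0.061, MT1H at 0.17, MT1X at 0.17 and MT2A at 0.074, in PC9M2 with EGF MT1H at 0.041 and MT1X at 0.038, and MT1A between the lines with EGF at -0.0019. With the last 13 time points 1 member was called for EGF in PC9, 3 for the lines with EGF and 1 for the difference of the gefitinib effect with EGF, and MT1F reversed to -0.22 for gefitinib in PC9M2 and to -0.29 for that difference.

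Of the alternatives chosen after seeing the data, leaving out 10 to 15 h left 0 members for EGF in PC9, 2 for EGF in PC9M2, 0, 1 and 1 for the lines with gefitinib, with EGF and with both, and 0 for the difference of the gefitinib effect without EGF. MT1E then reversed between the lines to 0.39 with EGF and 0.36 with both, and MT2A to 0.059 with both. Leaving out 0 to 6 h gave 5 members between the lines with gefitinib.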

Other observations

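The copper list (12 genes, 11 tested) had 4 genes higher and 4 lower with gefitinib in each of the 4 comparisons, where 32.5% to 38.9% of all genes were higher and 34% to 40% lower, so that these shares lay near those of all genes. SLC31A2, a low-affinity copper transporter, was higher by 0.72, 0.79, 0.59 and 0.65 in PC9, PC9 with EGF, PC9M2 and PC9M2 with EGF, and COMMD1, a copper export factor, by 1.12, 1.25, 0.72 and 0.76. ATOX1, a copper chaperone, differed by -0.71, -0.54, -0.75 and -0.996 and was lower at 23, 23, 23 and 22 of 26 time points. SCO1, which serves the copper centre of cytochrome c oxidase, differed by -0.86, -0.78, -0.54 and -0.57.

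The list of the glucocorticoid receptor and its usual target genes (12 tested) had 6 higher and 5 lower in PC9, 6 and 4 in PC9 with EGF, 6 and 4 in PC9M2, and 5 and 4 in PC9M2 with EGF, against the same shares of all genes. TSC22D3, an anti-inflammatory target of the receptor, was higher by 2.52, 2.21, 1.68 and 1.97. FKBP5, a co-chaperone of the receptor, differed by -1.51, -1.30, -1.13 and -1.18, and ERRFI1, a feedback inhibitor of the EGF receptor, by -2.10, -2.34, -1.18 and -1.42. ANGPTL4, a regulator of lipoprotein lipase, differed by -3.14, -4.08, -1.99 and -2.89, with a probe well above background on 143 arrays. Of the 9 tested epithelial markers 2 were higher and 2 lower in PC9, 2 and 2 in PC9 with EGF, 3 and 0 in PC9M2 and 5 and 2 in PC9M2 with EGF, against the same shares of all genes. Among these markers NAPSA, a lung epithelial protease, was higher with gefitinib by 0.71, 0.94, 1.03 and 1.09.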
